A study of Rattus norvegicus with 18 samples.

Results

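The comparison described here sets the lungs of rats that had inhaled cigarette smoke at the lower of 2 concentrations, 300 µg of total particulate matter per litre, against the lungs of sham-exposed rats. Its members were chosen by sample title and are 12 of the 18 arrays of the series, 6 per exposure. All animals were male Sprague-Dawley rats, an outbred strain, whose age the labels do not give. Exposure was nose-only, lasted 13 weeks with 5 daily sessions of 2 h each week, and used mainstream smoke of a standard reference cigarette (2R4F) or a sham treatment on that schedule. Recovery after the final session was 2, 6 or 20 h. Total lung RNA of each exposure and time was hybridised to 1 array of each of 2 Affymetrix types (A and B), whose probe sets hardly overlap, and the other 6 arrays hold a group at 600 µg/l. The labels do not say how many rats each array stands for. No exposure and time had a replicate array, so the 3 recovery times were the replicates (n = 3 arrays per exposure and type), and every p-value below reflects the spread among these arrays alone.

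Cigarette smoke brings polycyclic hydrocarbons, oxidants and particles to the airway surface. Polycyclic hydrocarbons bind the aryl hydrocarbon receptor (AhR), a transcription factor that moves to the nucleus and switches on xenobiotic-metabolising enzymes, and oxidants release NRF2, which switches on glutathione and NADPH enzymes. Alveolar macrophages take up the particles and hold them in lysosomes, and airway and alveolar epithelium secretes chitinases, iron-chelating proteins and complement as part of mucosal defence.

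Some arrays need a caution before their values are read. For the arrays titled 300 µg/l at 20 h on both types, one further label gives sham exposure. Title and source name the smoke, so these arrays were kept as smoke. Values without the 20 h arrays of all 3 exposures are given for the genes that passed and for some other genes and lists. On type B the array labelled sham at 2 h lay close to the array labelled 300 µg/l at 2 h. The log2 signals of these arrays differed with an SD of 0.236 over the probe sets tested, against 0.334 to 0.443 for any other pair among the 9 B arrays. With the same labels on type A the SD was 0.263, inside the range of the remaining A pairs (0.213 to 0.314). Single B genes, chosen after their values were seen and so no separate support, also read alike in these arrays. Neither of the genes given here was high in that pair alone. The signals of the MHC class II gene RT1-Ba at 2, 6 and 20 h were 5993, 329.9 and 579.6 in sham and 6066, 4895 and 342 at 300 µg/l. Ahrr, which encodes the repressor of AhR and is itself an AhR target, read 885, 198 and 233 in sham, 839, 244 and 163 at 300 µg/l and 533, 248 and 264 at 600 µg/l, so that all 3 arrays at 2 h were high, the one labelled sham included. A difference between sham and smoke at 2 h on type B is therefore hardly measured here, and values without that sham array are given for the type B genes and lists it touches.

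Lung identity was plain in both groups. The surfactant protein gene Sftpc read 15855 to 18173 in sham and 16421 to 17983 at 300 µg/l, and the club cell secretory protein gene Scgb1a1 13321 to 15411 and 13548 to 15904. The alveolar type 1 cell gene Ager read 8274 to 8942 and 7819 to 9106. Signals of all arrays had been scaled to the same trimmed mean, 500.09 to 500.10.

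Across 19638 probe sets, 9 passed an adjusted p of 0.05 for 300 µg/l against sham (0.0458% of those tested), 8 higher (0.0407%) and 1 lower (0.00509%), all on type A. The test was limma on log2(signal + 50), with exposure and recovery time in the model and Benjamini-Hochberg adjustment over both types; all log2 changes here are on that scale, which understates the change of dim genes. At an unadjusted p under 0.05 there were 1085 probe sets (5.53%), more of them on type A (815) than on type B (270). By gene, with the brightest probe set standing for each, 7 of 10165 genes rose (0.0689%) and none fell, while 359 were higher (3.53%) and 312 lower (3.07%) at an unadjusted p under 0.05. The risers were Chia, Lcn2, C3, Gpnmb, Cd68, Ctsd and Naaa. The remaining 2 probe sets belong to Plet1 and Rab15 and are not the brightest of their gene. All 3 arrays at 300 µg/l lay above all 3 sham arrays in 503 genes (4.95%) and below them in 468 (4.6%). Both kinds of count were denser on type A, which holds most of the listed genes: there 8.62% of genes had an unadjusted p under 0.05, 6.4% lay all above and 6.03% all below sham, against 3.11%, 2.44% and 2.15% on type B. Every list count below is to be read against these shares. The count of 9 was 18 without the 20 h arrays and 10 without the B sham array at 2 h. Leaving out single A arrays moved it to 2 (sham at 2 h), 4 (sham at 6 h), 14 (sham at 20 h), 2 (300 µg/l at 2 h), 3 (300 µg/l at 6 h) and 14 (600 µg/l at 6 h, which shares the estimate of spread).

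**Figure D1:**
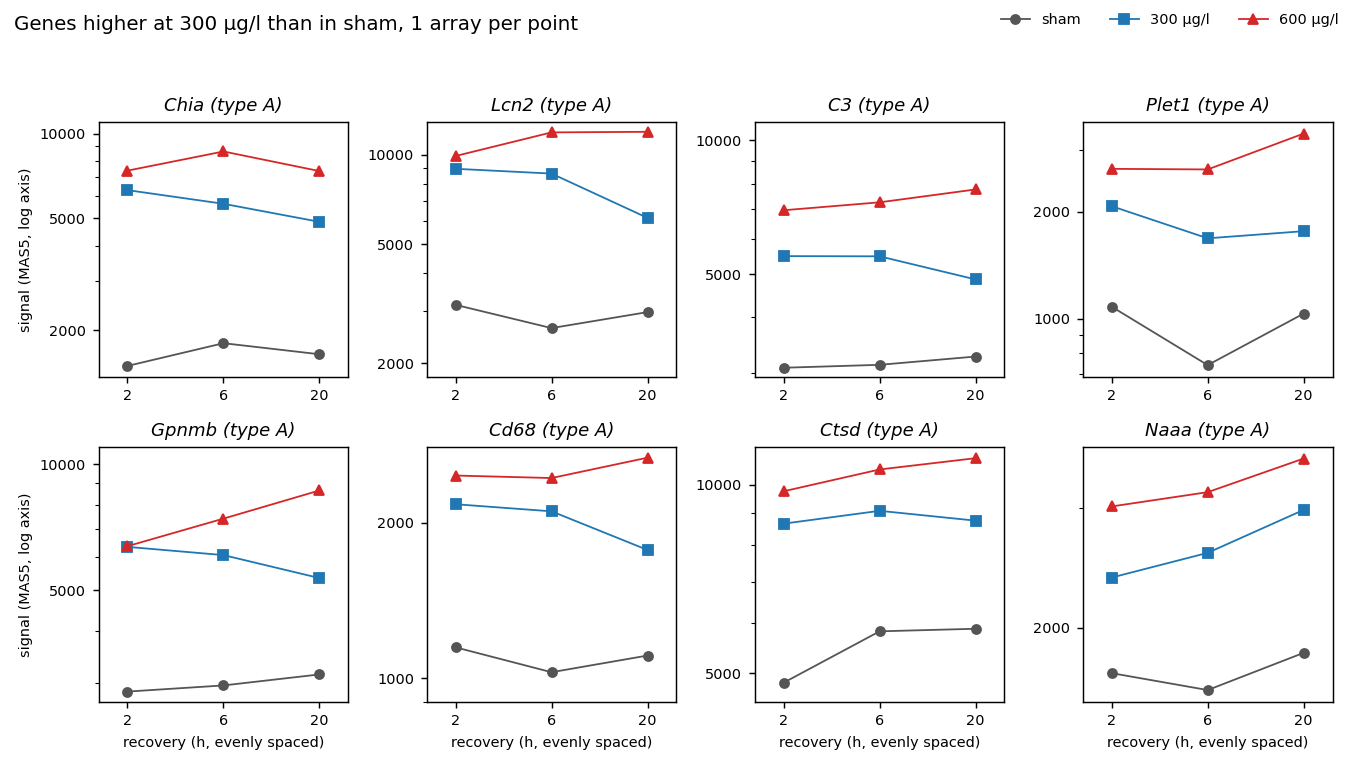
Signal of 8 probe sets that passed the test, on log axes of different range, against recovery time (2, 6 and 20 h, evenly spaced), with 1 array per point: sham in grey, 300 µg/l in blue and 600 µg/l in red. In every panel the 3 arrays at 300 µg/l lie above the 3 sham arrays, and for Chia they read 4857 to 6297 against 1493 to 1798.

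Among the genes that passed the test, the largest rises were in the mucosal defence list. Chia encodes acidic mammalian chitinase, an enzyme that airway and alveolar epithelium secretes and that cuts chitin. Its signals at 2, 6 and 20 h were 1493, 1798 and 1643 in sham and 6297, 5630.0 and 4857 at 300 µg/l. Every smoke array stood far above every sham array, and Chia rose 3.32-fold (log2 1.73, SE 0.09, limma adjusted p = 0.0001). The call held under 30 of 30 other settings. Some of these left out type B arrays only, which for a type A gene can alter the shared adjustment but not the fit. That limit applies to every count of 30 settings given below for a type A gene. Lcn2, which encodes lipocalin 2, a protein that binds bacterial siderophores and so keeps iron from microbes, read 3135, 2619.7 and 2964 in sham and 8968, 8642 and 6136 at 300 µg/l. The lowest smoke array, at 20 h, was still about double the highest sham array, and the change was log2 1.41 (SE 0.14, adjusted p = 0.0066). C3 encodes the central complement protein. Its signals were 3084, 3131 and 3268 in sham and 5495, 5489 and 4870.5 at 300 µg/l, with little spread inside either group, and it rose by log2 0.73 (SE 0.07, adjusted p = 0.0069).

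Of 16 mucosal defence genes listed, 12 were measured; 3 rose, none fell and 9 did not pass. Like every list here, this one was chosen with earlier results of these data known, so its counts are description only. The median change of the 12 was 0.16, against 0.00 over all genes tested. Groups did not overlap, with smoke above, in 5 of them, against 4.95% of all genes tested. The 5 are the risers and another pair. Slc26a4, an anion exchanger that works in airway surface liquid, read 82.0, 94.2 and 72.3 in sham and 332, 258 and 186 at 300 µg/l (log2 1.19, SE 0.27, adjusted p = 0.3). All its sham signals were under the 183.8 of the low-signal filter on type A, so the size of that difference is uncertain. Pigr, the receptor that carries IgA across epithelium, stood at 0.20 (SE 0.06, adjusted p = 0.66). The lysozyme gene Lyz2 stood at 0.00 (SE 0.04) and the membrane mucin gene Muc1 at 0.10 (SE 0.09). The secreted protease inhibitor gene Slpi stood at -0.25 (SE 0.13) and Bpifa1, which encodes a secreted airway protein, at -0.36 (SE 0.21), or -0.64 without the B sham array at 2 h, which also put it past an unadjusted p of 0.05 as the one lower member.

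Plet1, which encodes a surface protein of placental and other epithelia, was read by 3 probe sets. The A probe set had signals of 1081, 739.7 and 1034 in sham and 2077, 1686 and 1766 at 300 µg/l and rose by log2 0.93 (SE 0.11, adjusted p = 0.022). The brighter pair on type B did not pass, at 0.66 (adjusted p = 0.71) and 0.70 (adjusted p = 0.82). Their readings at 2 h were alike in the arrays labelled sham and smoke. Without the B sham array at 2 h they stood at 1.02 (adjusted p = 0.043) and 1.14 (adjusted p = 0.091), so one of them then passed.

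Macrophage genes came next. Gpnmb encodes a transmembrane glycoprotein of phagocytes, and its signals were 2857, 2956 and 3140.2 in sham and 6342, 6061 and 5340.3 at 300 µg/l. The groups were well apart at every time, and Gpnmb rose 1.96-fold (log2 0.97, SE 0.11, adjusted p = 0.01). Cd68, the endosomal glycoprotein used as a general macrophage marker, read 1147, 1026 and 1106 in sham and 2171, 2104 and 1770.3 at 300 µg/l. It rose by log2 0.85 (SE 0.09, adjusted p = 0.01), with the lowest smoke array again at 20 h. In bulk lung, more macrophages and more RNA per macrophage cannot be told apart.

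Of 25 alveolar macrophage markers listed, 19 were measured; 2 rose, none fell and 17 did not pass, with a median of 0.28. At an unadjusted p under 0.05, 9 were higher and none lower, or 11 higher without the B sham array at 2 h. Over all genes tested, 3.53% were higher and 3.07% lower. Lgals3, which encodes galectin 3, read 4160.3, 5706 and 4956 in sham and 7249, 7990.1 and 6567 at 300 µg/l (log2 0.56, SE 0.08, adjusted p = 0.062). The fatty acid-binding protein gene Fabp5 read 2382, 2317 and 2706 in sham and 3402, 4185 and 3522 at 300 µg/l (log2 0.57, adjusted p = 0.12). In both the groups did not overlap, nor in the lipoprotein lipase gene Lpl (0.41), the endotoxin co-receptor gene Cd14 (0.49), the scavenger receptor gene Cd36 (0.28) and the tetraspanin gene Cd63 (0.18), named after their values were seen. Other macrophage markers did not share this. Cd163, a haemoglobin scavenger receptor of resident macrophages, stood at -0.23 (SE 0.13) with all 3 smoke arrays below sham, Adgre1, the gene of the F4/80 antigen, at -0.35 (SE 0.23), and Mrc1, the mannose receptor gene, at 0.14 (SE 0.10). All 3 are on type B, and without its sham array at 2 h they stood at -0.29, -0.44 and 0.22. Members on type A, named after their values were seen, also lay near or below 0. These were Csf1r at -0.13 (SE 0.11), Cd9 at 0.0 (SE 0.09) and Plin2 at 0.14 (SE 0.10). The macrophage elastase gene Mmp12 was dim and went from 191, 158 and 162 in sham to 401, 261 and 156 at 300 µg/l (log2 0.48, SE 0.27), so that its array at 20 h was no higher than sham (log2 0.74 without the 20 h arrays). Summed over the 19 markers, signals were 39926 to 40809 in sham and 48157 to 52917 at 300 µg/l.

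Lysosomal genes were the other place with risers. Ctsd encodes cathepsin D, the main aspartic protease of lysosomes, and its promoter carries the 8-base core of the CLEAR element, the motif bound by the lysosomal regulator TFEB. The 120 bases before the Ctsd start (RefSeq, build GRCr8, chr1:206968822-206968941, minus strand) are shown for that motif, in capitals 11 to 4 bases before the start.

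Ctsd: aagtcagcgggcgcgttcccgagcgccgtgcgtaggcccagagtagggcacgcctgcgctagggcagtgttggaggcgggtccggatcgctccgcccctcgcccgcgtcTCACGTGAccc

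Searched on both strands from 250 bases before to 50 after the start, TCACGTGA was found in 3 of 22 promoters of measured lysosomal genes (13.6%) and in 1.7% of the 9335 promoters of genes tested. The other pair, Lamp1 and Mcoln1, stood at 0.10 (SE 0.06) and -0.04 (SE 0.11). The motif contains the shorter E-box CACGTG, which was in 22.7% and 9.4% of the same promoters.

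Ctsd signals were 4825, 5829.6 and 5885 in sham and 8665, 9084 and 8762 at 300 µg/l. The smoke arrays lay close together, all above sham, and Ctsd rose by log2 0.68 (SE 0.06, adjusted p = 0.0066). Naaa encodes a lysosomal amidase that breaks down lipid-derived ethanolamides; it read 1717, 1622 and 1839 in sham and 2371, 2577 and 2979 at 300 µg/l and rose by log2 0.60 (SE 0.07, adjusted p = 0.022). Of all risers its call was lost most often, under 12 of 30 settings, among them the fit without the 20 h arrays (log2 0.55, adjusted p = 0.19). Of 32 lysosomal genes listed, 27 were measured, of which 2 rose and 25 did not pass. In 11 the smoke arrays lay all above sham and in none all below. Over all genes tested these shares were 4.95% and 4.6% (6.4% and 6.03% on type A). The median was 0.14 and 23 of the 27 changes were positive. Ctsk, the collagen-degrading cathepsin K gene, was dim, with 110.1, 46.7 and 95.1 in sham and 332, 219.5 and 221 at 300 µg/l (log2 1.21, SE 0.19, adjusted p = 0.077). Its sham signals lay under the filter level, so the size is uncertain. The proton pump subunit gene Atp6v1b2 stood at 0.37 (SE 0.08, adjusted p = 0.28), and the cathepsin S gene Ctss at 0.36 (SE 0.10). Pld3, a lysosomal nuclease gene outside the list, read 332, 404 and 409 in sham and 576, 669 and 632 at 300 µg/l (log2 0.65, adjusted p = 0.062).

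Without the 20 h arrays Chia stood at log2 1.83 (adjusted p = 0.0018), Lcn2 at 1.60 (0.0022), C3 at 0.81 (0.017), Gpnmb at 1.08 (0.0062), Cd68 at 0.95 (0.024), Ctsd at 0.74 (0.024) and the A probe set of Plet1 at 1.02 (0.047), so these calls held and Naaa alone among the risers was lost. The medians were then 0.21 for the mucosal defence, 0.26 for the macrophage and 0.20 for the lysosome list.

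Each of these calls except that of Chia was lost when one or another A array was left out. Without sham at 2 h, 300 µg/l at 2 h or 300 µg/l at 6 h in turn, Lcn2, C3, Gpnmb, Cd68 and Ctsd did not pass, and without sham at 6 h Lcn2, C3, Gpnmb and Cd68 did not. Their adjusted p-values were then 0.052 to 0.13. Naaa did not pass without any one of 7 arrays (0.059 to 0.16), nor the A probe set of Plet1 without any one of 5 (0.084 to 0.23). For Naaa these were all 6 A arrays of sham and 300 µg/l and the one of 600 µg/l at 2 h, and for Plet1 the 3 of sham and those of 300 µg/l at 2 and 6 h.

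**Figure D2:**
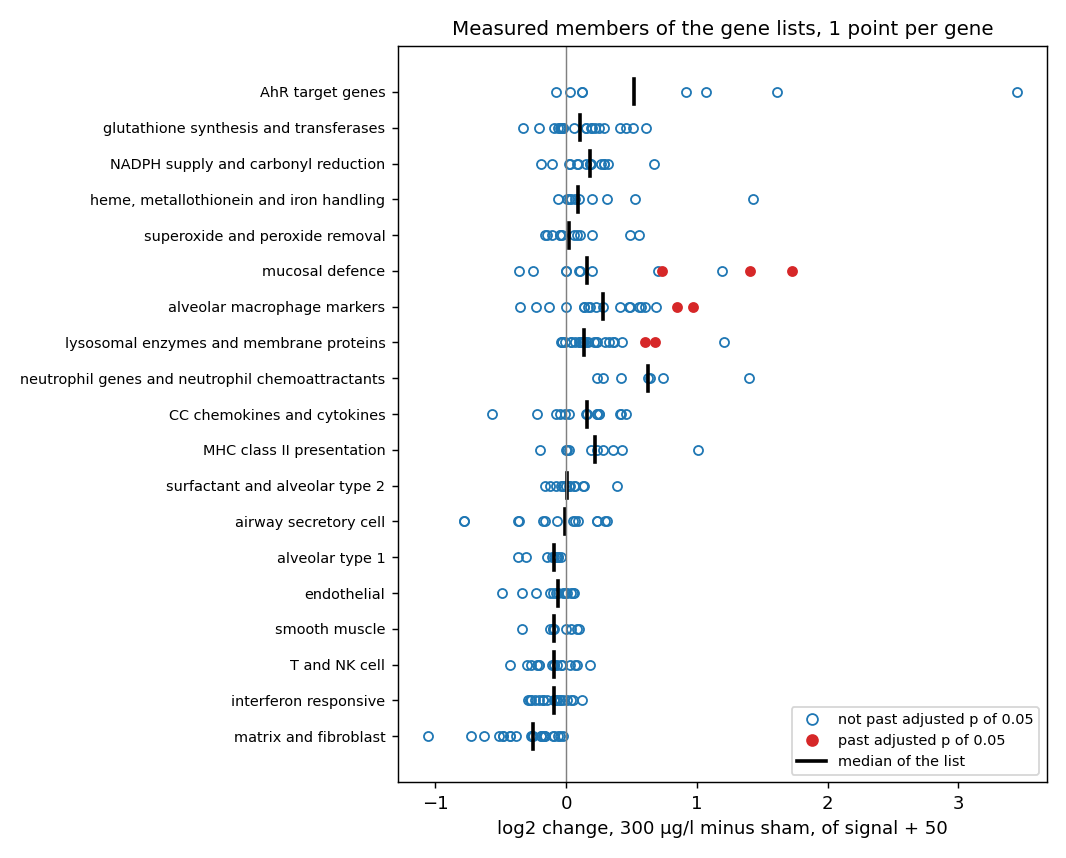
Log2 change (300 µg/l minus sham, of signal + 50) of each measured member of 19 gene lists, 1 point per gene; filled red points passed an adjusted p of 0.05, open blue points did not, and black bars are medians. The 7 filled points lie in the mucosal defence, macrophage and lysosome lists, and all 23 matrix and fibroblast genes lie below 0.

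Neutrophil genes and the chemokines that draw neutrophils all had positive changes, none past the threshold. Of 15 listed, 7 were measured, with a median of 0.63. At an unadjusted p under 0.05, 5 were higher (3.53% over all genes tested), and 4 had non-overlapping groups with smoke above (4.95% over all genes tested). S100a9, a subunit of the neutrophil protein calprotectin, read 968, 695 and 1033 in sham and 2300.1, 2234 and 2752 at 300 µg/l. The lowest smoke array was above double the highest sham array (log2 1.40, SE 0.22, adjusted p = 0.077). S100a9 passed in the fit of the sham and 300 µg/l arrays alone (adjusted p = 0.0026), without the A array of 600 µg/l at 2 h (0.017) and without that at 6 h (0.015). In all, S100a9 passed under 4 of 30 other settings and did not under 26. In its partner S100a8 the groups overlapped, with 298, 194 and 614 in sham and 378, 308 and 550.1 at 300 µg/l (log2 0.24, SE 0.30). The interleukin 1 beta gene Il1b stood at 0.63 (SE 0.14, adjusted p = 0.32). Of the chemokines, Cxcl2 read 83.5, 63.2 and 75.0 in sham and 232, 121 and 133 at 300 µg/l, under the filter level in all sham arrays (log2 0.74, SE 0.18), and Cxcl1 521, 398 and 781 in sham and 1342, 718 and 702 at 300 µg/l, with smoke clearly above sham at 2 h and below it at 20 h (log2 0.64, SE 0.22; 1.03 without the 20 h arrays, adjusted p = 0.17).

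Of 21 CC chemokine and cytokine genes, 15 were measured and none passed by limma (median 0.16). At an unadjusted p under 0.05, 4 were higher and 1 lower (3.53% and 3.07% over all genes tested). Ccl6, a macrophage chemokine gene, read 6382, 5382 and 7188 in sham and 7861, 8794 and 8547 at 300 µg/l (log2 0.42, SE 0.09, adjusted p = 0.27). Its dimmer type B probe set stood at 0.62, or 1.02 without the B sham array at 2 h (adjusted p = 0.069). Il18, an inflammasome-processed cytokine gene, stood at 0.41 (SE 0.09) and Ccl3, a monocyte chemoattractant gene, at 0.46 (SE 0.11), both without overlap. Ccl5, an attractant of T cells, read 3206, 3091 and 3135 in sham and 2306, 2678 and 3182 at 300 µg/l (log2 -0.22, SE 0.10): it was lower at 2 and 6 h and level at 20 h.

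AhR targets differed from sham far more at 2 h than at 20 h. The promoters of Cyp1b1 and Nqo1 are shown for the AhR core motif GCGTG, in capitals on whichever strand it lies. The stretches are the 120 bases before each start in RefSeq, build GRCr8, at chr6:21094445-21094564 (plus strand) and chr19:52220268-52220387 (minus strand).

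Cyp1b1: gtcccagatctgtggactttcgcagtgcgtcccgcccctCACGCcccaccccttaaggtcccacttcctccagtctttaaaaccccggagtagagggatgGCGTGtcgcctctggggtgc

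Nqo1: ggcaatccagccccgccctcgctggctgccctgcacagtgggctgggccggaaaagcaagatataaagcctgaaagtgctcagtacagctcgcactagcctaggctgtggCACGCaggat

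Cyp1b1 carried the motif at 81 and 20 bases before the start and Nqo1 at 10. From 250 bases before to 50 after the start, GCGTG was found on either strand in 5 of 6 promoters of measured AhR list members (83.3%) and in 48.6% of promoters of genes tested. The members with it were Ahrr, Arnt, Cyp1b1, Nqo1 and Tiparp, and Ahr had none. Cyp1a1 and Aldh3a1, also measured, had no matched promoter and were not searched. Of the members with the motif, Nqo1 and Cyp1b1 stood at log2 1.07 and 0.92. Arnt and Tiparp stood at 0.12 each and Ahrr at -0.08 (0.07 without the B sham array at 2 h).

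Cyp1a1 encodes the cytochrome P450 that oxidises polycyclic hydrocarbons and is the classic AhR target. Its signals at 2, 6 and 20 h were 154, 111 and 102 in sham and 8795, 2789 and 209 at 300 µg/l. The difference was log2 5.44 at 2 h, 4.14 at 6 h and 0.77 at 20 h, 1 array against 1. All its sham signals lay under the filter level, so it was tested because of its smoke arrays and the size of these differences is uncertain. Over the 3 times the change was 3.45 (SE 0.72) and did not pass (limma adjusted p = 0.25), the SE holding this spread between times. Without the 20 h arrays it was 4.79 (adjusted p = 0.0018) and passed, and without the A sham array at 20 h it was 4.77 (adjusted p = 0.00051). Nqo1, a quinone reductase under both AhR and NRF2, read 1234, 1394 and 1389 in sham and 4750.5, 3478 and 1413 at 300 µg/l, so that smoke was high at 2 and 6 h and level with sham at 20 h. Its change was 1.07 (SE 0.30, adjusted p = 0.62), or 1.60 without the 20 h arrays (adjusted p = 0.024) and 1.59 without the A sham array at 20 h (adjusted p = 0.018). Cyp1b1, another P450 gene of this receptor, read 474, 408 and 437 in sham and 2008, 571 and 570.4 at 300 µg/l (log2 0.92, SE 0.32, adjusted p = 0.72; 1.21 without the 20 h arrays). The difference stood mostly at 2 h. The aldehyde dehydrogenase gene Aldh3a1 was dim in sham (68.4, 86.8 and 89.8) and read 1225, 269.5 and 107 at 300 µg/l (log2 1.61, SE 0.59, adjusted p = 0.79; 2.33 without the 20 h arrays). It reached the filter level on smoke arrays at 2 and 6 h alone, so its size is uncertain too.

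**Figure D3:**
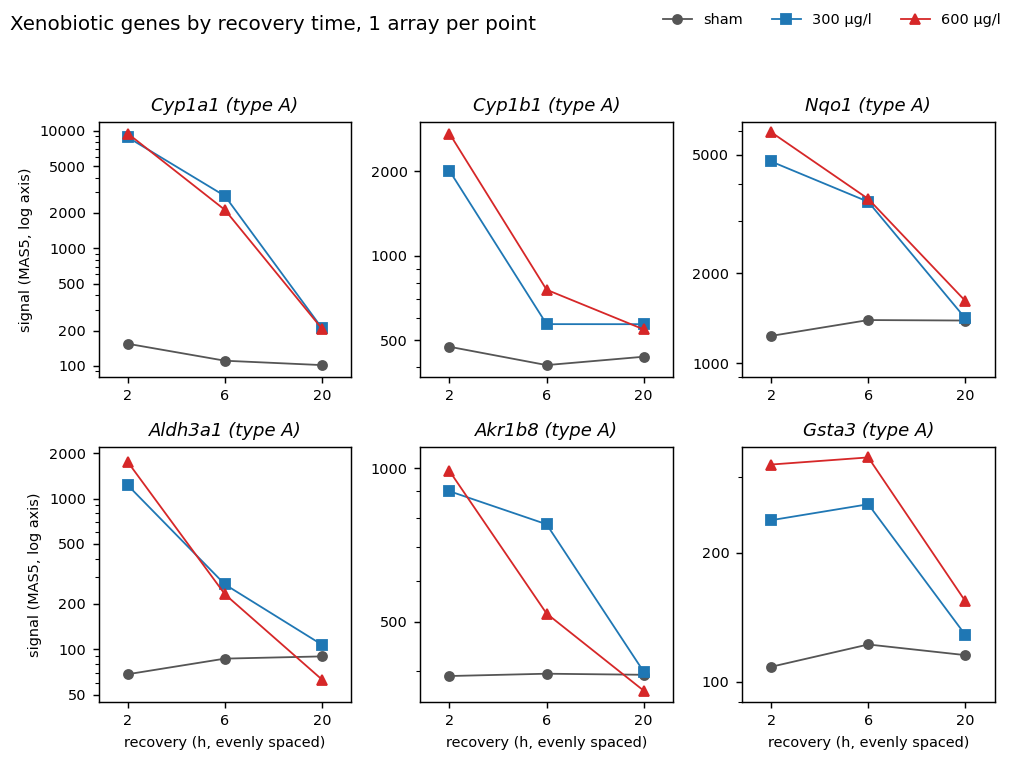
Signal (log axes of different range) of 6 xenobiotic genes against recovery time (2, 6 and 20 h, evenly spaced), 1 array per point, in sham (grey), 300 µg/l (blue) and 600 µg/l (red). Cyp1a1 goes from 8795 at 2 h to 209 at 20 h at 300 µg/l, while its sham arrays stay between 102 and 154.

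The 300 µg/l arrays alone leave no spread for a test of time, so the time course was tested with both concentrations together. Of the 19638 probe sets, 2 passed for the smoke effect at 20 h minus that at 2 h (0.0102%), both of them AhR targets. They are Cyp1a1 (log2 -4.72, SE 0.23, adjusted p = 0.00023) and Aldh3a1 (-3.74, SE 0.37, adjusted p = 0.041), while Nqo1 stood at -1.95 (SE 0.21, adjusted p = 0.054) and Cyp1b1 at -1.87 (adjusted p = 0.43). The spread in that fit is between 300 and 600 µg/l at the same time and holds no variation of sham. The smoke arrays at 20 h are also those with conflicting labels. The genes that rose were not near sham at 20 h: Chia stood at log2 1.54 there, Lcn2 at 1.04, Ctsd at 0.57 and Cd68 at 0.66. The other AhR list members lay near 0: Ahr itself stood at 0.03 (SE 0.09), its partner Arnt at 0.12 (SE 0.12), and Tiparp at 0.12 (SE 0.12) on type B (0.10 without the B sham array at 2 h) and 0.08 (SE 0.10) on type A. Of 10 listed, 8 were measured, with a median of 0.52 (1.05 at 2 h, 0.37 at 6 h and 0.03 at 20 h). None passed over all probe sets. At an unadjusted p under 0.05, 4 were higher and none lower (3.53% and 3.07% over all genes tested).

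NRF2 targets had smaller differences. Of 26 genes of glutathione synthesis and transfer, 22 were measured and none passed by limma (median 0.11). At an unadjusted p under 0.05, 5 were higher and 1 lower (3.53% and 3.07% over all genes tested). Gstp1, the pi-class transferase gene, read 3999, 4125 and 3843 in sham and 5785, 6436 and 4011 at 300 µg/l (log2 0.41, SE 0.10, adjusted p = 0.39). Its 20 h smoke array lay inside the sham range, and without the 20 h arrays it stood at 0.58 (adjusted p = 0.082). Gsta3 was dim, with 108, 122 and 116 in sham and 238, 259.5 and 129 at 300 µg/l (log2 0.61, SE 0.18), under the filter level in sham, and again stood near sham at 20 h (0.85 without the 20 h arrays). Mgst2, a membrane-bound transferase gene, stood at 0.29 (SE 0.08) and Gstm1 at 0.51 (SE 0.15), both without overlap, whereas Gstm5 was the one lower member, at -0.33 (SE 0.10). Transferases of one class are close in sequence, so a probe set may read more than one of them. Gclc, whose product catalyses the first step towards glutathione, read 380.5, 444 and 359.8 in sham and 588, 370.5 and 389 at 300 µg/l (log2 0.15, SE 0.14). This probe set was above sham at 2 h and below or near it later, 1 array against 1. A dimmer Gclc probe set differed by log2 0.20 at 2 h, 0.25 at 6 h and 0.03 at 20 h (0.16, SE 0.16, over the times). TGACNNNGC, the core of the antioxidant response element, was in 10 of 38 promoters of the glutathione and NADPH lists together (26.3%). It was in 14.6% of promoters of genes tested. The lysosome list had a like share, 6 of 22 promoters (27.3%), so the higher share was not particular to these lists.

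Of 17 genes of NADPH supply and carbonyl reduction, 15 were measured and none passed (median 0.18). At an unadjusted p under 0.05, 3 were higher and none lower (3.53% and 3.07% over all genes tested). Akr1b8, an aldo-keto reductase gene, read 392, 396 and 394 in sham and 901, 776 and 399 at 300 µg/l. It was about double sham at 2 and 6 h and level with it at 20 h (log2 0.67, SE 0.22, limma adjusted p = 0.71). Without the 20 h arrays Akr1b8 stood at 1.0 (adjusted p = 0.24). The transketolase gene Tkt stood at 0.29 (SE 0.10) and the epoxide hydrolase gene Ephx1 at 0.27 (SE 0.11).

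A metallothionein gene had the largest difference in its list. Mt2A, which encodes a metal-binding protein, read 579, 436 and 139 in sham and 1416, 964 and 716 at 300 µg/l, without overlap (log2 1.43, SE 0.21, adjusted p = 0.062). It passed without the 20 h arrays (1.14, adjusted p = 0.032), and without the A sham array at 20 h (1.09, adjusted p = 0.032) or the A arrays of 600 µg/l at 6 h (0.042) or 20 h (0.028). In all, Mt2A passed under 8 of 30 other settings and did not under 22. The heme oxygenase gene Hmox1 read 455, 385 and 316 in sham and 762, 635 and 385 at 300 µg/l (log2 0.53, SE 0.16, adjusted p = 0.69). Of 16 heme, metallothionein and iron genes 10 were measured and none passed the adjusted threshold (median 0.09). At an unadjusted p under 0.05, 3 of them were higher, against 3.53% of all genes tested. Of 13 genes that remove superoxide and peroxides 12 were measured and none passed, with 3 higher at an unadjusted p under 0.05 and a median of 0.02. The 3 were Sod2, the mitochondrial superoxide dismutase gene, with 1086, 1019 and 1126 in sham and 1686, 1615 and 1542 at 300 µg/l (log2 0.56, SE 0.09, adjusted p = 0.077), and the peroxiredoxin genes Prdx5 (0.49, SE 0.11) and Prdx6 (0.20, SE 0.06). Sod1 and the catalase gene Cat stood at 0.06 (SE 0.08) and -0.11 (SE 0.11).

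Genes of the extracellular matrix and fibroblasts lay below sham, without one passing over all probe sets. All 23 listed genes were measured and all 23 changes were negative (median -0.25, -0.29 without the 20 h arrays); 15 were lower at an unadjusted p under 0.05 and in 10 all smoke arrays lay below all sham arrays. Of the 23, 5 (Spon2, Tnc, Wif1, Scn7a and Col5a2) had been listed with their direction in these data known. Without them, 18 of 18 changes were negative, 10 were lower at an unadjusted p under 0.05, 5 did not overlap and the median was -0.19. These counts are description only, because the whole list was chosen with earlier results of these data known. Over all genes tested, 5124 of 10165 changes were negative, and 3.07% were lower at an unadjusted p under 0.05. Smoke arrays lay all below sham in 4.6% of genes, or 6.03% on type A, which holds all 23. Mfap5, a microfibril gene, read 1003, 989 and 935 in sham and 595, 626 and 804 at 300 µg/l (log2 -0.51, SE 0.11, adjusted p = 0.25). The fibrillin gene Fbn1 read 981, 1348 and 1336 in sham and 668, 959.6 and 1072 at 300 µg/l (log2 -0.43, SE 0.09), and its 20 h smoke array lay inside the sham range. Of the collagens, chosen after their values were seen, Col1a1 stood at -0.38 (SE 0.11), Col3a1 at -0.25 (SE 0.08), Col6a1 at -0.27 (SE 0.08) and Col4a1, of basement membranes, at -0.17 (SE 0.07). Decorin (Dcn, -0.10), Sparc (-0.05), lumican (Lum, -0.06) and periostin (Postn, -0.02) lay near 0.

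The lower genes with the smallest p included several of these. Spon2, which encodes the matrix protein spondin 2, read 1346, 788 and 1525 in sham and 453, 461 and 743 at 300 µg/l. Every smoke array was below every sham array (log2 -1.06, SE 0.15, adjusted p = 0.056). Spon2 passed without the A sham array at 6 h (-1.26, adjusted p = 0.041) or the A array of 600 µg/l at 6 h (-1.06, adjusted p = 0.042). In all, it passed under 4 of 30 other settings and did not under 26. The Wnt inhibitor gene Wif1 read 1414, 1891 and 1793 in sham and 846, 1088 and 1322 at 300 µg/l (log2 -0.63, SE 0.10, adjusted p = 0.077). Without the A sham array at 20 h it stood at -0.76 (adjusted p = 0.038). In all, Wif1 passed under 2 of 30 other settings and did not under 28. Loxl1, a lysyl oxidase that cross-links elastin, read 670.0, 820.2 and 817 in sham and 433, 498 and 561 at 300 µg/l (log2 -0.58, SE 0.09, adjusted p = 0.077). Col5a2 stood at -0.48 (SE 0.10) and Pxdn, a peroxidase that cross-links collagen IV, at -0.36 (SE 0.08). The other 4 named by this rule were Cdc42ep2, an effector of the GTPase Cdc42 (-0.53, SE 0.08), the lung P450 gene Cyp4b1 (-0.37, SE 0.07), the mitochondrial deoxyguanosine kinase gene Dguok (-0.64, SE 0.13) and Lypd8 (-0.73, SE 0.15), none past the threshold.

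**Figure D4:**
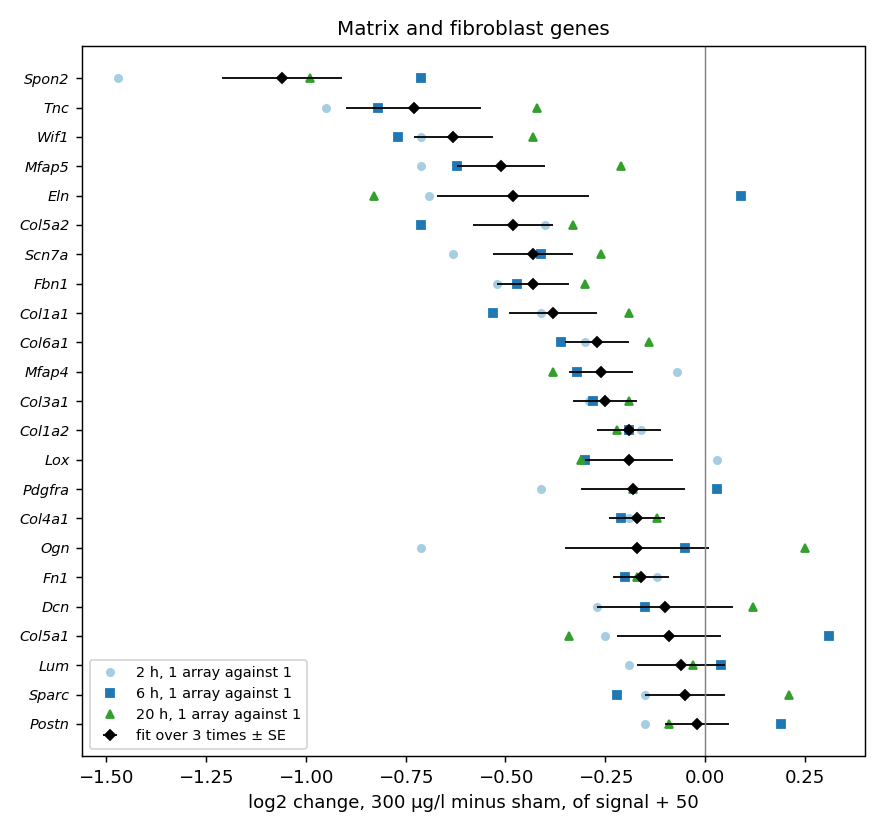
Log2 change (300 µg/l minus sham, of signal + 50) of the 23 matrix and fibroblast genes: black diamonds with bars are the fit over the 3 times ± SE, coloured points the single differences at 2, 6 and 20 h. All 23 diamonds lie left of 0, from -1.06 for Spon2 to -0.02 for Postn.

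Markers of other cells that could move with these genes were set beside them. The matrix genes' summed signal was 54973 to 57853 in sham and 44975 to 48023 at 300 µg/l, while that of the macrophage markers went the other way, as given above. Of 9 smooth muscle genes none passed (1 lower at an unadjusted p under 0.05, median -0.09). The share lower at that threshold was 3.07% over all genes tested, also for the lists that follow. Of 11 alveolar type 1 genes 10 were measured, all 10 negative, 3 lower at an unadjusted p under 0.05 (median -0.09): Aqp5, a water channel gene, at -0.31 (SE 0.09), Akap5 at -0.37 (SE 0.11) and podoplanin (Pdpn) at -0.15 (SE 0.06). Of 16 endothelial genes 13 were measured, with 3 lower and a median of -0.06; the arterial connexin gene Gja4 read 1269.7, 1458 and 1688 in sham and 759.5, 1259 and 1140.0 at 300 µg/l (log2 -0.49, SE 0.11), and the other lower members were Emcn at -0.34 (SE 0.09) and Tie1 at -0.23 (SE 0.08), while Pecam1 stood at 0.01 and Kdr at 0.04. Cardiac muscle genes, which mark heart or pulmonary vein tissue in the sample, were negative in 4 of 4 measured of 10 listed, with summed signals of 1567 to 2124 in sham and 1140 to 1423 at 300 µg/l (median -0.37, -0.51 without the 20 h arrays and -0.47 without the B sham array at 2 h). The 3'/5' ratio of the hexokinase control, a sign of RNA quality, was 2.62 to 4.52 on the A sham arrays and 2.97 to 3.27 on the A smoke arrays. The part of any of these in the matrix result was not tested.

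Gene lists of the epithelial cells that line airways and make surfactant had medians near 0, apart from the ciliated cell list. Of 15 surfactant and alveolar type 2 genes 14 were measured and none passed, nor was one past an unadjusted p of 0.05 (median 0.01). Of 17 airway secretory cell genes 14 were measured, 2 of them lower at an unadjusted p under 0.05, against 3.07% of all genes tested (median -0.01). Cyp4b1 read 5659.8, 4854 and 5739.8 in sham and 4134, 4061 and 4334 at 300 µg/l, without overlap. Cyp2f4, another P450 gene of club cells, read 996, 1222 and 1060.3 in sham and 355, 564 and 1124 at 300 µg/l: it was low at 2 and 6 h and at the sham level at 20 h. Its change was -0.78 (SE 0.23, adjusted p = 0.66), or -1.21 without the 20 h arrays (adjusted p = 0.049). Of 12 ciliated cell genes 7 were measured, with 1 lower, Tppp3 at -0.22 (SE 0.07), and a median of 0.20. Without the 20 h arrays the medians of the secretory and ciliated lists were -0.14 and -0.05.

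No lymphocyte or antigen presentation gene passed by limma. The counts at an unadjusted p under 0.05 stand beside 3.53% higher and 3.07% lower over all genes tested. Of 21 T and NK cell genes 16 were measured and none passed, with 3 lower at an unadjusted p under 0.05 and a median of -0.09; the perforin gene Prf1 stood at -0.43 (SE 0.14) and the granule gene Nkg7 at -0.30 (SE 0.12). Of 12 B and plasma cell genes 6 were measured, none with an unadjusted p under 0.05 (median -0.01). Of 23 interferon-responsive genes 20 were measured, 2 lower (median -0.09), with the deubiquitinase gene Usp18 at -0.27 (SE 0.08). Of 12 MHC class II genes 10 were measured and none passed; 5 were higher at an unadjusted p under 0.05 (median 0.22). Ifi30, a lysosomal thiol reductase of antigen processing, stood at 0.24 (SE 0.08) and RT1-Da at 0.19 (SE 0.06), but the invariant chain gene Cd74 at 0.00 (SE 0.06). RT1-Ba had the largest value of the list, 1.01 (SE 0.67), or 1.36 without the B sham array at 2 h, with the wide spread between arrays of one exposure given above.

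The remaining lists held few differences. Their counts, too, stand beside 3.53% higher and 3.07% lower over all genes tested. At an unadjusted p under 0.05, none of 21 measured genes of fatty acid and sterol synthesis and none of 23 of heat shock and unfolded protein differed (medians -0.04 and 0.03). Of 16 cell cycle genes 2 were higher and 3 lower (median 0.01, -0.10 without the 20 h arrays), with Stmn1 at -0.32 (SE 0.09). Of 10 p53 and DNA damage genes 1 was lower, Phlda3 at -0.40 (SE 0.12; median -0.03), and of 13 immediate early genes 2 were higher, Myc at 0.47 (SE 0.14) and Ccn2 at 0.28 (SE 0.10; median 0.12). Of 11 glucocorticoid-responsive genes 1 was higher, Mt2A, already described (median 0.18, -0.05 without the 20 h arrays). Of 8 measured matrix metalloproteinase and inhibitor genes 1 was lower, the gelatinase gene Mmp2, with 1819, 1780.4 and 1563 in sham and 1278, 1334 and 1412 at 300 µg/l (log2 -0.35, SE 0.09; median 0.05). Small lists of other tissues had medians of -0.01 (4 mast cell genes), -0.10 (3 of skeletal muscle), -0.15 (2 of adipose tissue), -0.25 (3 erythroid) and -0.06 (3 of thymus and lymph node), and among these only the erythroid gene Alas2 had an unadjusted p under 0.05, at -0.35 (SE 0.13).

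Clock gene signals varied between recovery times. Dbp, a clock output transcription factor gene, read 189, 1303 and 119.6 in sham and 415, 568 and 484 at 300 µg/l, so that the sham arrays swung widely between times and the smoke arrays little. Nr1d1, the REV-ERB alpha repressor gene, read 778, 1522 and 179 in sham and 649, 496 and 679.7 at 300 µg/l, and Per2 317, 732 and 266 in sham and 925, 606 and 550.3 at 300 µg/l. With 1 array per exposure and time this difference in swing has no replicate check, and over the times Dbp stood at 0.50 (SE 0.62) and Nr1d1 at -0.03 (SE 0.67), or -0.08 and -0.88 without the 20 h arrays. For Per2 the change was 0.69 (SE 0.28, adjusted p = 0.82), and 1.19 (adjusted p = 0.041) when the A sham array at 6 h was left out. That was the only 1 of 30 other settings under which Per2 passed. Of 19 clock genes 17 were measured and none passed (median 0.02). At an unadjusted p under 0.05, 2 were higher, against 3.53% of all genes tested. Beside Per2 this was Bhlhe41, a repressor of the clock loop, with 517, 617 and 395 in sham and 962, 1004 and 810.3 at 300 µg/l and no overlap (log2 0.81, SE 0.13, adjusted p = 0.077).

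Set against 600 µg/l, the 7 risers had higher mean signals again at the higher concentration, without a difference past the threshold. Chia read 7385, 8641 and 7358 at 600 µg/l, log2 0.48 above 300 µg/l (SE 0.09, adjusted p = 0.6), C3 0.47 (SE 0.07, adjusted p = 0.33) and Lcn2 0.52 (SE 0.14, adjusted p = 0.8). For Cyp1a1 (9463, 2122 and 207 at 600 µg/l) the concentrations gave like signals at each time. Of 19638 probe sets, 4 passed for 600 against 300 µg/l (0.0204%), and 992 had an unadjusted p under 0.05 (5.05%). One was a probe set with no gene name. Another was the A probe set of Rab15, described below, with a step of log2 2.03 (SE 0.15, limma adjusted p = 0.0016). Its signals at 300 µg/l lay under the filter level, so the size of that step is uncertain. Ly6al, a Ly6 family member measured on type B, read 1174, 1109.5 and 1116 in sham, 1208, 1502 and 1017 at 300 µg/l and 3382, 3913 and 4379 at 600 µg/l. It was at the sham level at 300 µg/l (log2 0.11, SE 0.14; 0.19 without the B sham array at 2 h) and rose from 300 to 600 µg/l by 1.62 (SE 0.14, adjusted p = 0.0048). Arg1, the arginase gene of alternatively activated macrophages, read 258, 337 and 252 in sham, 388, 482 and 395 at 300 µg/l and 641, 865 and 781 at 600 µg/l. At 300 µg/l it lay above sham without passing (log2 0.51, SE 0.09, adjusted p = 0.13), and the step to 600 µg/l was 0.78 (SE 0.09, adjusted p = 0.036). Its list of 4 measured genes (median -0.21) also held Ass1 at -0.40 (SE 0.13) and the inducible nitric oxide synthase gene Nos2 at -0.75 (SE 0.27). Both were lower at an unadjusted p under 0.05, against 3.07% of all genes tested. Nos2 was dim, with 169.5, 194 and 232 in sham and 95.7, 39.1 and 196 at 300 µg/l (-1.02 without the 20 h arrays). The count of 4 was 2 without the 20 h arrays, and also 2 when the A array of 300 µg/l at 2 or 20 h or any 1 of the 3 A arrays of 600 µg/l was left out.

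One probe set passed the test of 300 µg/l against both other exposures together, and it was low at 300 µg/l. The A probe set of Rab15, a small GTPase gene of endosome recycling, read 182, 264 and 311 in sham, 56.4, 53.9 and 54.7 at 300 µg/l and 372, 349 and 419 at 600 µg/l. It fell from sham to 300 µg/l (log2 -1.50, SE 0.15, adjusted p = 0.0066) and differed from the mean of sham and 600 µg/l by -1.77 (adjusted p = 0.0015), as the one probe set of 19638 that passed that test (0.00509%; 651, or 3.32%, had an unadjusted p under 0.05). Leaving out the A sham array at 20 h or the A array of 300 µg/l at 6 h raised that count of 1 to 2, and leaving out all 20 h arrays took it to 0. Its signals at 300 µg/l lay under the filter level, and its change from sham did not pass without the 20 h arrays (-1.36, adjusted p = 0.055), without the A sham array at 6 h (-1.43, adjusted p = 0.059) or without the A array of 300 µg/l at 6 h (adjusted p = 0.056). A brighter type B probe set of Rab15 read 1149, 1365 and 1196 in sham and 1042, 1069 and 1129.9 at 300 µg/l (log2 -0.18, SE 0.10, adjusted p = 0.96; -0.20 without the B sham array at 2 h), so the probe sets of this gene disagree in size.

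**Figure D5:**
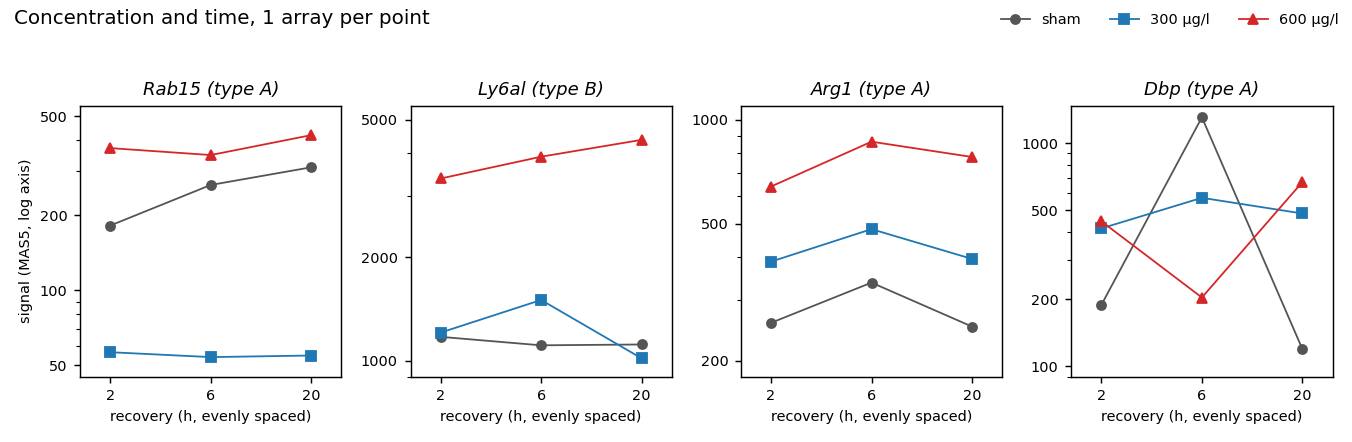
Signal (log axes of different range) of Rab15 (A probe set), Ly6al, Arg1 and Dbp against recovery time (2, 6 and 20 h, evenly spaced), 1 array per point, in sham (grey), 300 µg/l (blue) and 600 µg/l (red). Rab15 is lowest at 300 µg/l and Ly6al highest at 600 µg/l at every time, Arg1 lies between, and Dbp peaks at 6 h in sham.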

How the data were processed

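Per the labels, total lung RNA was labelled with biotin as cRNA. The deposited values are MAS5 signal intensity on a linear scale, per the submitters' processing notes; masks, detection calls and aggregation of animals are not given in the sources used here. The authors' scaling was kept. Gene symbols came from the platform annotation: 12789 of 15923 A and 7570 of 15333 B probe sets had 1 symbol, 312 and 100 had several, and 2822 and 7663 were not listed.

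A probe set was kept when 3 or more of 9 arrays reached the 40th percentile of its array type, a signal of 183.8 (A) or 238.7 (B), without 57 control probe sets per type, leaving 9901 and 9737. Probe sets present on both types (100) were tested on A. Signals were analysed as log2(signal + 50) with R 4.3.3 and its package limma 3.58.1, using lmFit and a trended eBayes per type over the 9 arrays with exposure and recovery time, two-sided, with Benjamini-Hochberg adjustment over both types. The fit was tested on simulated data. Recovery times are matched by label across exposures, so the model holds the time as a block. The members and gene lists were chosen with earlier results of these data known. Named were all called probe sets with a symbol, up to 10 genes per direction by smallest p among non-overlapping ones, up to 4 members per list, up to 5 per direction for the other contrasts, and a fixed set; other members were named after their values were seen. Alternatives were other normalizations, pseudocounts, filters, models and left-out arrays.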

Additional observations from a re-analysis of the deposited data

Results flagged for a closer look

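The smoke effect on Cyp1a1 and on Aldh3a1 differed between recovery times, by a test of the difference itself over both smoke concentrations together (limma, interaction of smoke and time). For Cyp1a1 the effect at 20 h minus that at 2 h was -4.72 on the log2 scale (SE 0.23, adjusted p = 0.00023), in the same direction at both concentrations. At 300 µg/l its signal went from 8795 at 2 h to 209 at 20 h, against 154 and 102 in sham. For Aldh3a1 the difference was -3.74 (SE 0.37, adjusted p = 0.041), with 1225 and 107 at 300 µg/l and 68.4 and 89.8 in sham. Sham signals of both genes lay under the filter level of 183.8, as did those of Aldh3a1 on the smoke arrays at 20 h, so both were tested because of their smoke arrays and the sizes of these differences are uncertain. The spread in these tests is that between the concentrations at one time, and the smoke arrays at 20 h carry a label that says sham; whether that bears on the difference was not tested.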

How the results depend on the processing

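The count of 9 probe sets for 300 µg/l against sham became 1 with no filter on dim probe sets, 2 with no intensity trend, 29 with adjustment within each type and 18 without the 20 h arrays, and ran from 2 to 14 when single arrays were left out; it was within 1.5 times under quantile normalization, median scaling, both other pseudocounts, the 60th percentile filter, the fit of the sham and 300 µg/l arrays alone, the fit with no replicate block (no recovery time in the model, 8), and without both doubtful B arrays. The count of 4 for 600 against 300 µg/l became 2 with no filter, 1 with the 60th percentile filter, 2 with no trend and 2 without the 20 h arrays (2 to 5 without single arrays). The count of 1 for 300 µg/l against the mean of the other exposures became 0 with the 60th percentile filter and 0 without the 20 h arrays, where 401 and 674 had an unadjusted p under 0.05 by limma (1 to 2 without single arrays). No named gene's change turned its sign past the threshold; 53 values of 8 called probe sets lost the threshold and 39 values of 17 other probe sets gained it, and the cause was not tested. Without the replicate block Naaa (adjusted p = 0.060) and the A probe set of Plet1 (0.058) did not pass. The number of arrays limits the precision. Where signals lie under the filter level, as in sham for Cyp1a1, Aldh3a1, Gsta3, Cxcl2, Slc26a4, Ctsk and Prodh2 and at 300 µg/l for Rab15, Lypd8, Tnc and Grm8, fold sizes depend on the pseudocount.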

Other observations

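Prodh2, a proline or hydroxyproline dehydrogenase gene in none of the lists, read 160.5, 178 and 159.8 in sham and 323, 374 and 307 at 300 µg/l (log2 0.83, SE 0.12, limma adjusted p = 0.062). Its smoke arrays were about double its sham arrays at every time and read 363, 366 and 463 at 600 µg/l. Prodh2 signals in sham lay under the filter level at every time. The gene was therefore tested because of its smoke arrays, and the size of its difference is uncertain. The glutamate receptor gene Grm8 and the ephrin gene Efna2 read lower at 300 µg/l than at 600 µg/l: Grm8 read 319.5, 173 and 327 in sham, 52.1, 145 and 149 at 300 µg/l and 264, 278 and 424 at 600 µg/l, and Efna2 188, 338 and 316 in sham, 192, 152 and 251 at 300 µg/l and 719, 459 and 581 at 600 µg/l. Neither passed for 600 against 300 µg/l (adjusted p = 0.6 and 0.52), and Grm8, whose 3 arrays at 300 µg/l lay below all others, did not pass against the mean of sham and 600 µg/l (log2 -1.10, adjusted p = 0.88), nor did Mon1a (-0.52, adjusted p = 1).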
